A study of Mus musculus with 5 samples.

Results

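The urokinase receptor gene Plaur, the plasminogen activator genes Plau and Plat, and the inhibitor genes Serpine2 and Serpinb2 were followed in 5 scRNA-seq libraries of mouse lung. The members were found by exact symbol and are 5 of the 42454 features in the count tables. All 5 had at least 100 counts over the libraries, as did 14375 features. All mice were C57BL/6J, and newborns were kept in room air or in hyperoxia (95% O2) for 3 days and then in room air until harvest at postnatal day (pnd) 7 or pnd60. The libraries were unsorted lung cells of air-exposed mice at pnd7, of hyperoxia-exposed mice at pnd7, of air-exposed mice at pnd60 and of hyperoxia-exposed mice at pnd60, and cells of hyperoxia-exposed mice at pnd7 that were sorted for C12FDG, a substrate that fluoresces after cleavage by the lysosomal enzyme beta-galactosidase. The sorted library pooled the lungs of 3 mice. The number of mice behind the unsorted libraries is not given in the sources used here, and these libraries came from an earlier experiment of the same group, so that the sort and the experiment cannot be told apart. Each condition had 1 library, so there is no spread between replicates and no p-value is given.

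Plasmin, the protease that dissolves fibrin and cleaves extracellular matrix, is made from plasminogen by the urokinase-type activator (encoded by Plau) and the tissue-type activator (encoded by Plat). The urokinase receptor, uPAR (encoded by Plaur), holds urokinase at the cell surface, is carried by monocytes, macrophages and neutrophils among other cells, and has been used as a surface mark of senescent cells. Protease nexin-1 (encoded by Serpine2) and the type 2 plasminogen activator inhibitor (encoded by Serpinb2) belong to the serpins and block the activators, and protease nexin-1 also blocks thrombin.

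Promoter sequences from RefSeq (build GRCm38.p6) were matched for 3 of the 5 members and are shown because Plaur and Serpinb2 were higher, and Serpine2 lower, in the sorted library. Each run holds the 250 bases before a transcript start site in the table. Those of Plaur and Serpinb2 lie inside the span of their gene, and for Serpinb2 the first of 2 start sites in the table is shown. Capitals mark matches, on either strand, to the TATA box letters TATAAA, the AP-1 letters TGANTCA and the GC box letters GGGCGG. The regions are chr7:24462233-24462482 on the + strand for Plaur, chr1:79858666-79858915 on the - strand for Serpine2 and chr1:107511173-107511422 on the + strand for Serpinb2.
Plaur: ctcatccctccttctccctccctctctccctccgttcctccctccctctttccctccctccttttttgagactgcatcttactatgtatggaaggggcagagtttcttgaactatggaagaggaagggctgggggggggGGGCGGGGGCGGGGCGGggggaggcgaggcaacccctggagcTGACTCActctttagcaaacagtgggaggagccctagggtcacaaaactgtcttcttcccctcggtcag
Serpine2: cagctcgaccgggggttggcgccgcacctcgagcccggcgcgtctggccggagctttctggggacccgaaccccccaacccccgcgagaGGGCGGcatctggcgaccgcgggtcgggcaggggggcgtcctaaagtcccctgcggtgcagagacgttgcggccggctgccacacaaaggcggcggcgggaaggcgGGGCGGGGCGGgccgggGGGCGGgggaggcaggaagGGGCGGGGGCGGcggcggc
Serpinb2: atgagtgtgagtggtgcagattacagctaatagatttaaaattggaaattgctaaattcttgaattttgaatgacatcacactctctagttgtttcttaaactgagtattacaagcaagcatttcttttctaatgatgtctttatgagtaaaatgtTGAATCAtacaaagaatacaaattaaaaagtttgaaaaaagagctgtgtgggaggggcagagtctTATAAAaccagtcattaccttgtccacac
The Plaur run held 1 AP-1 match and 3 GC boxes, the Serpinb2 run held 1 AP-1 match and 1 TATA box, and the Serpine2 run held 6 GC boxes and neither of the others. Of all 32851 promoters in the same table, 6.75% held the AP-1 letters, 12.4% the TATA letters and 32.7% the GC box letters. These matches are descriptions of the sequence and say nothing of which factor was bound. In the same build the Plaur gene lies on chromosome 7 (24460937-24475970), Plau on chromosome 14 (20836662-20843388), Plat on chromosome 8 (22757722-22782848), Serpine2 on chromosome 1 (79794317-79858665) and Serpinb2 on chromosome 1 (107500892-107525600).

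After the filter on genes and mitochondrial counts, the libraries held 493 to 4756 cells and 7880365 to 16648251 counts of unique molecular identifiers (UMIs). The median depth per cell ran from 2168 counts in air at pnd60 to 15529 counts in the sorted library. At most 8 barcodes of a library were found in another, and the sorted library shared 0. Hemoglobin genes took 0.0013% of the counts of the sorted library and 0.117% to 3.38% of those of the unsorted ones. Cells were put in 24 classes named from markers, and alveolar macrophage-like cells made up 83.6% of the sorted cells against 3.42% to 4.41% of the unsorted cells. All 12 alveolar macrophage markers were detected in every library, and their summed level was 4413 CPM (a gene's counts scaled so that all counts of a library or class add up to the same total) in the sorted library and 655 to 2162 CPM in the others. The summed level of 10 immediate early genes, which respond within minutes to handling, was 2821 CPM in the sorted library and 3870 to 6831 CPM in the others, and the part of these shifts in the results below was not tested.

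Plaur, Plau and Serpinb2 were higher in the sorted library than in unsorted hyperoxia cells at pnd7, and Plat and Serpine2 were lower. All 5 passed a ratio of 2-fold, 3 of them higher and 2 lower, where 8.17% of the 11340 genes with at least 100 counts in both libraries together were higher by that much and 36.4% lower. The directions were the same against air at pnd7, with 3 members higher and 2 lower, against 7.81% and 38.5% of genes. With the cells that Scrublet called doublets removed, 4 members passed against hyperoxia, since Serpinb2, at 5.69, then had under 100 counts, and against air Serpinb2 was at 2.18. Both comparisons share the sorted library, so they are not independent. Between hyperoxia and air, 0 of the 4 members with enough counts passed 2-fold at either age. The background was 0.183% of genes higher and 0.802% lower at pnd7, and 0.271% higher and 0.248% lower at pnd60. From pnd7 to pnd60, Plat and Serpine2 were lower by more than 2-fold both in air, where 15.1% of genes were higher and 9.35% lower, and after hyperoxia, where 19.1% were higher and 9.49% lower. With all deposited barcodes Plat lost this call, at -0.68 in air and -0.56 after hyperoxia, Serpine2 kept it, at -1.55 and -1.07, and Plaur passed 2-fold higher, at 1.22 and 1.02, as did Plau after hyperoxia, at 1.64. Over all deposited barcodes, hemoglobin genes took 39.2% of the counts in air and 37.6% in hyperoxia at pnd7. They took 3.31% and 1.26% at pnd60 and 0.644% in the sorted library, and their part in these ratios was not tested. In bulk sums of this kind, a change in the share of a cell type and a change of RNA per cell cannot be told apart. Scaling by the median of ratios in place of library totals moved every sorted ratio up by 0.67 (against hyperoxia) or 0.69 (against air) on the log2 scale and every ratio of pnd60 over pnd7 down by 0.20 (air) or 0.24 (hyperoxia), and no direction of a member changed with it in the sorted comparisons.

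**Figure D1:**
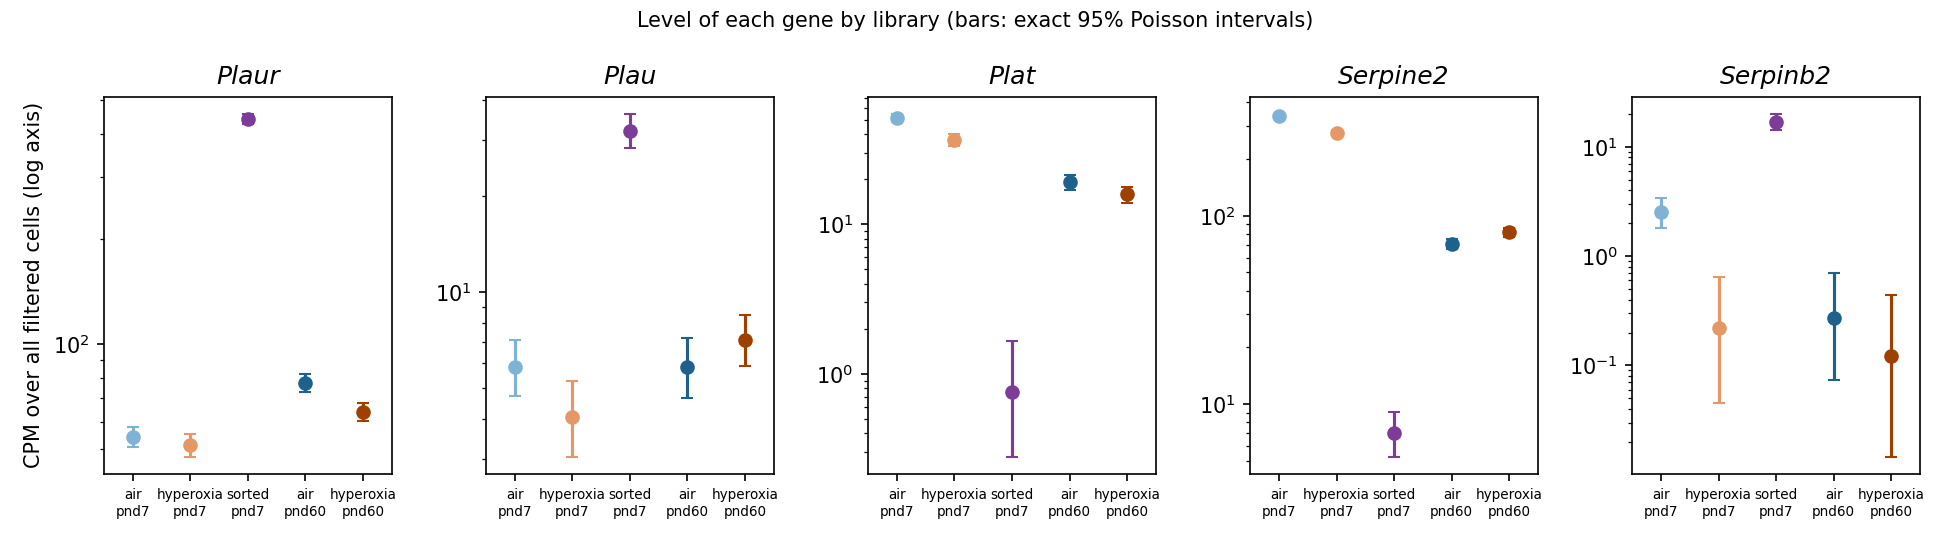
CPM of each member (log axis) in each of the 5 libraries, with exact 95% Poisson intervals as bars. Plaur, Plau and Serpinb2 sit highest in the sorted library, at 441, 32.1 and 17.0 CPM, and Plat and Serpine2 lowest there, at 0.76 and 6.98 CPM.

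**Figure D2:**
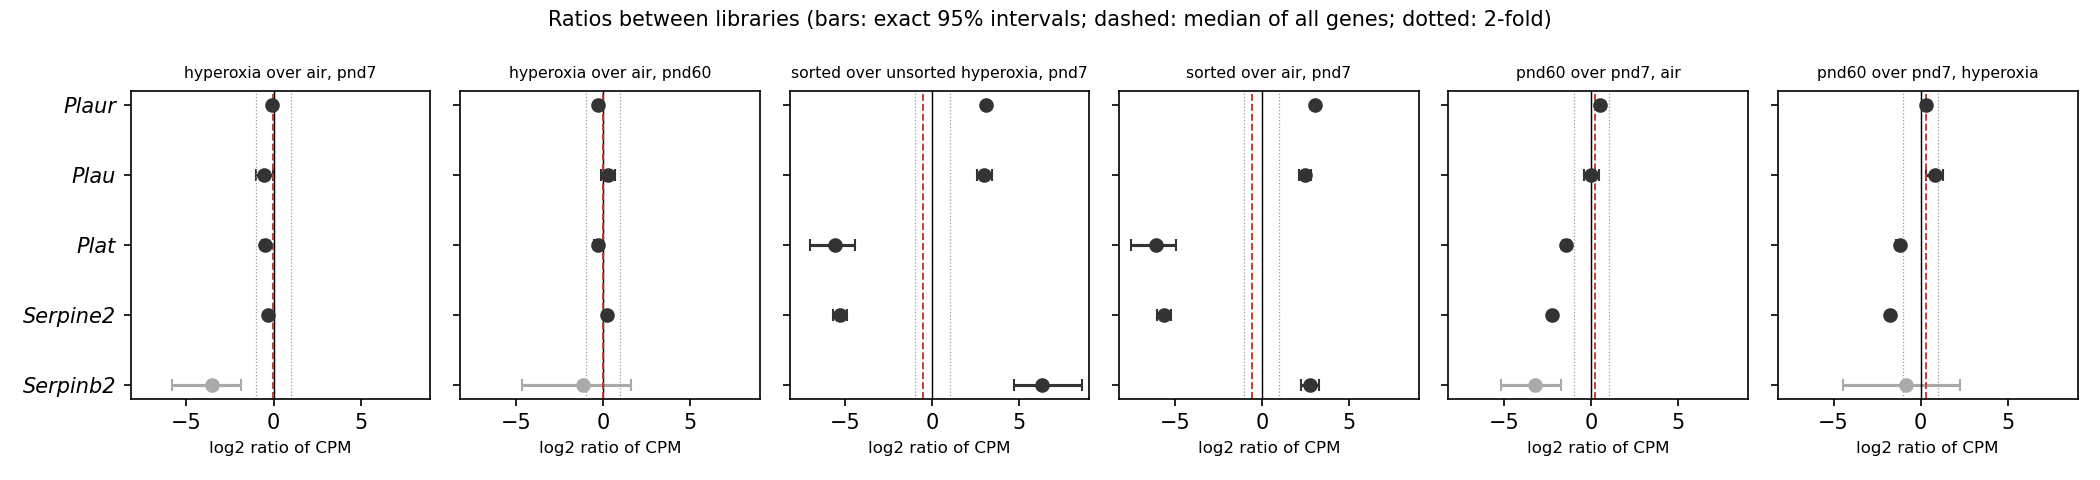
Log2 ratio of CPM of each member in 6 comparisons, with exact 95% intervals as bars, the median of all genes as a dashed line and 2-fold as dotted lines. Members with under 100 counts in both libraries together are in grey, and the ratios of hyperoxia over air of the 4 members with more counts lie between -0.52 and 0.28, while those of the sorted library lie beyond 2-fold in both directions.

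Plaur, the receptor, was measured at 54.1 CPM in air and 51.3 CPM in hyperoxia at pnd7, at 441 CPM in the sorted library, and at 77.3 CPM in air and 63.8 CPM in hyperoxia at pnd60. Its exact 95% intervals were 50.6 to 57.8, 47.6 to 55.3, 426 to 456, 72.9 to 81.9 and 60.02 to 67.8 CPM in the same order. Here and below, intervals cover counting error only, and not the spread between mice. The sorted library stood alone at the top, the pnd60 libraries came next, and the unsorted pnd7 libraries overlapped. The log2 ratio of sorted over unsorted hyperoxia was 3.103 (95% interval 2.98 to 3.22), a fold of 8.59 from 3475 counts against 697. The median over all genes tested was -0.55.

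Hyperoxia over air gave a log2 ratio of -0.08 (-0.22 to 0.07) for Plaur at pnd7, an interval that spans 0. The direction turned with the weight given to each cell, to 0.29 with the mean of each cell's CPM and to 0.18 with every cell thinned to 1000 counts. At pnd60 the ratio was -0.28 (-0.40 to -0.16), against a median of 0.01 over all genes. The adult hyperoxia library thus held Plaur at 0.825 of the air level. From pnd7 to pnd60 it was higher by 0.51 (0.39 to 0.64) in air and 0.31 (0.17 to 0.45) after hyperoxia, beside medians of all genes of 0.23 and 0.29. The ratio after hyperoxia changed its sign under the thinned counts, to -0.03, and under the mean of each cell's CPM, to -0.12.

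The class with the most Plaur counts was the same in all 5 libraries. Alveolar macrophage-like cells gave 41.4% of all Plaur counts in air and 38.7% in hyperoxia at pnd7, and 43.1% and 39.5% at pnd60, while being 3.42%, 4.41%, 4.25% and 3.99% of the cells. In the sorted library they gave 91.2% of the counts and 83.6% of the cells. The level of Plaur in these cells was 332 CPM in air and 307 CPM in hyperoxia at pnd7, 481 CPM in the sorted library, and 323 CPM in air and 260 CPM in hyperoxia at pnd60. The sorted cells were highest, and the intervals of the unsorted libraries overlapped except that hyperoxia at pnd60, at 236 to 286 CPM, lay under both air libraries.

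Within alveolar macrophage-like cells, which clear inhaled particles and surfactant, the ratio of sorted over unsorted hyperoxia was 0.65 (0.47 to 0.83), from 3169 counts in 412 cells against 270 counts in 55 cells. Plaur was the 1 member with 100 counts in this class, and it did not pass 2-fold, where 4% of 6623 genes were higher and 13.8% lower. The median of all genes in the class was -0.29. The ratio over air was 0.53 (0.38 to 0.69). In these cells immediate early genes summed to 1679 CPM in the sorted and 3203 CPM in the unsorted hyperoxia library, and type II cell markers to 453 and 283 CPM. In the air cells these sums were 2953 and 6581 CPM, and their part in the Plaur ratios was not tested. The sorted cells of this class lay in other clusters than the unsorted ones. Of the sorted cells, 366 were in cluster 10, led by Hmox1, Slc7a11, Mt1 and Mmp12, genes of heme breakdown, cystine uptake, metal binding and elastin cleavage. This cluster held 9 of the 12 alveolar macrophage markers at a raised level but none among its top 10 genes, and all but 6 of its cells came from the sorted library, so it may be that library rather than a type. Another 46 sorted cells were in cluster 36, led by genes of DNA replication and mitosis, together with 16 cells of the unsorted hyperoxia library.

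In cluster 36, where both libraries had cells, Plaur stood at 412 CPM among 46 cells from the sort, against 232 CPM among 16 cells of unsorted hyperoxia lung. The ratio was 0.83 (0.44 to 1.24), beside a median of -0.06 over all genes of the cluster. Against the 15 air cells of the same cluster, at 285 CPM, it was 0.53 (0.19 to 0.89). Cluster 31, with most unsorted alveolar macrophage-like cells at pnd7, had the same level in air and hyperoxia, at 345 CPM in both, with a ratio of -0.00 (-0.27 to 0.27). Cluster 12, with most of the adult cells and led by Chil3, stood at 356 CPM in air and 254 CPM in hyperoxia, a ratio of -0.49 (-0.70 to -0.27).

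**Figure D3:**
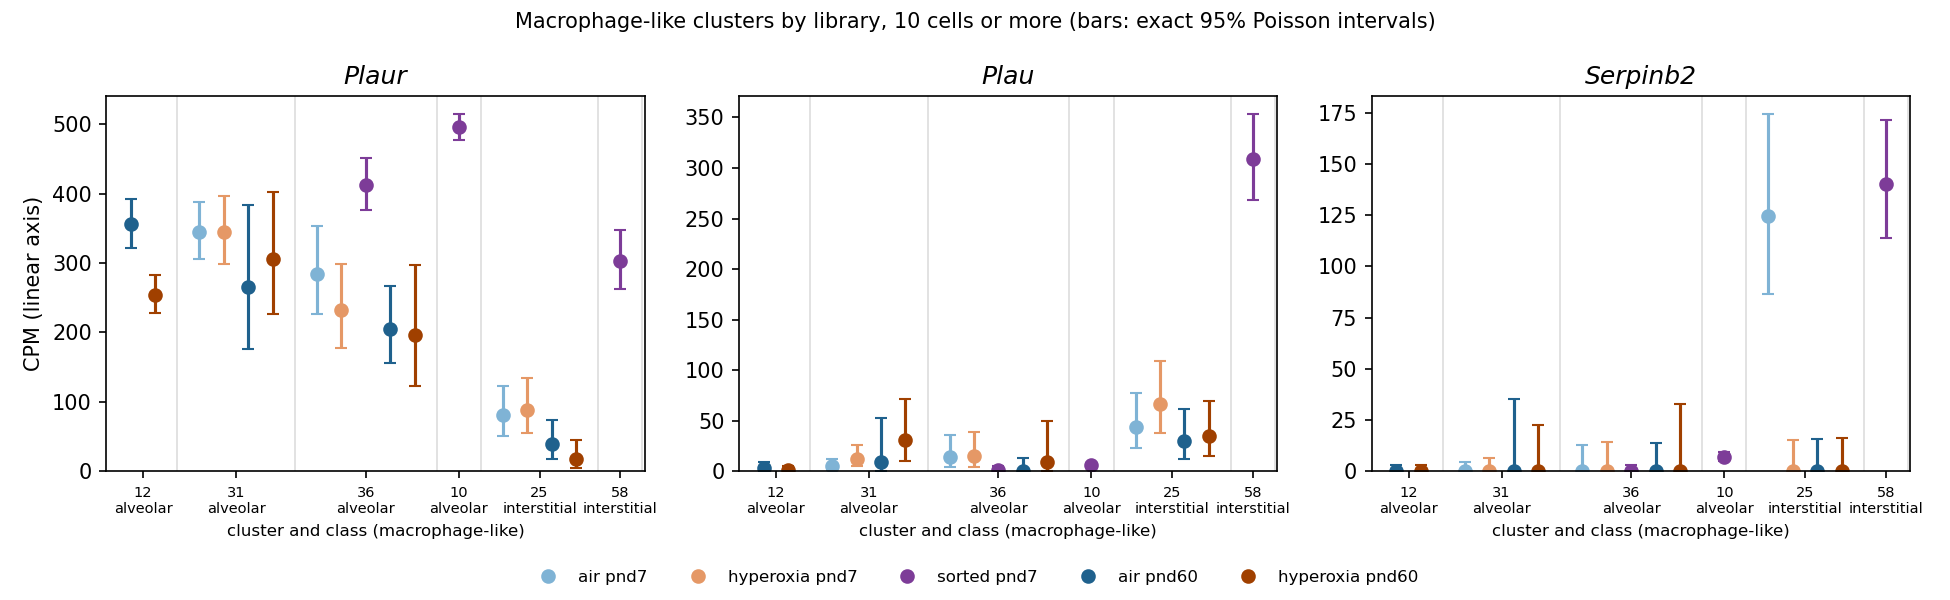
CPM of Plaur, Plau and Serpinb2 (linear axes) in each macrophage-like cluster of at least 10 cells, by library, with exact 95% Poisson intervals as bars. Plaur is highest in the sorted cells of clusters 10 and 36, at 495 and 412 CPM, Plau in the sorted cells of cluster 58, at 308 CPM, and Serpinb2 in cluster 58 and in the air pnd7 cells of cluster 25, where it rests on 1 cell.

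Interstitial macrophage-like cells, the C1q-expressing macrophages of the lung tissue, held Plaur at 80.7 CPM in air and 87.7 CPM in hyperoxia at pnd7, at 282 CPM in the sorted library, and at 38.5 CPM in air and 17.6 CPM in hyperoxia at pnd60. The unsorted hyperoxia library had 19 such cells at pnd7, under the minimum of 20, so the 23 air cells served as the main reference. Sorted over air gave 1.80 (1.17 to 2.51), from 211 counts in 47 cells against 22 counts in 23 cells. Of 1680 genes in this comparison, 18.1% were higher by 2-fold and 9.58% lower. Of the sorted cells, 44 were in cluster 58, which no other library shared and which was led by Cxcl2, Ms4a7, C1qb and C1qc, and the unsorted cells were all in cluster 25. Markers of type II cells summed to 8454 CPM in the sorted and 8277 CPM in the air cells of this class, and to 326 CPM in hyperoxia at pnd7. Immediate early genes summed to 11236 CPM after the sort, 6857 CPM in air and 8017 CPM in hyperoxia, and their part in the Plaur ratio was not tested.

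Outside the macrophages, the level of Plaur was highest in monocytes, neutrophils and aerocyte-like cells, the capillary cells that take up oxygen. Nonclassical monocyte-like cells, which patrol vessels, held 279 CPM in air and 299 CPM in hyperoxia at pnd7, and 236 CPM and 225 CPM at pnd60. Classical monocyte-like cells held 243 CPM in air at pnd7, and 284 CPM in air and 239 CPM in hyperoxia at pnd60. Neutrophil-like cells held 258 and 242 CPM at pnd60. None of the intervals of hyperoxia over air in these 3 classes left 0, and the same held between ages where both had 20 cells. B cell-like cells gave 10.9% of the Plaur counts in air and 10.5% in hyperoxia at pnd60, while being 28.6% and 26.8% of the cells.

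Aerocyte-like cells were the class in which Plaur was higher in hyperoxia than in air at pnd7 by an interval above 0. They held 160 CPM in air (33 counts in 24 cells) and 333 CPM in hyperoxia (56 counts in 26 cells), and 180 CPM and 198 CPM at pnd60. The ratio at pnd7 was 1.06 (0.42 to 1.73), and at pnd60 it was 0.14 (-0.36 to 0.63). Over the 11 classes with enough cells and at least 20 counts in the 2 libraries together, 1 interval lay above 0 and 1 below it at pnd7. That below was fibroblast-like cells, with 30 counts in air and 6 in hyperoxia. At pnd60, 0 of 11 lay above and 2 below, alveolar macrophage-like cells at -0.31 (-0.51 to -0.12) and capillary endothelial cell-like cells at -1.28 (-1.83 to -0.75), with 91.2 CPM in air against 37.6 CPM in hyperoxia.

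The share of cells with at least 1 Plaur UMI was 16.4% in air and 21.9% in hyperoxia at pnd7, 89.7% in the sorted library, and 14.1% and 12.8% at pnd60. With every cell thinned to 1000 counts the shares were 4.86%, 5.46%, 31.03%, 6.22% and 5.37%. The sorted library was highest on both scales. Type II cell-like cells, a class of surfactant-producing cells at similar depth, had a Plaur UMI in 4.85% of 206 cells in air and 0.60% of 167 cells in hyperoxia at pnd7, at median depths of 13828 and 15963 counts, against 97.5% and 92.7% of alveolar macrophage-like cells at 13392 and 16079 counts. The share in the macrophages was thus far over that in a class not known for the receptor.

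**Figure D4:**
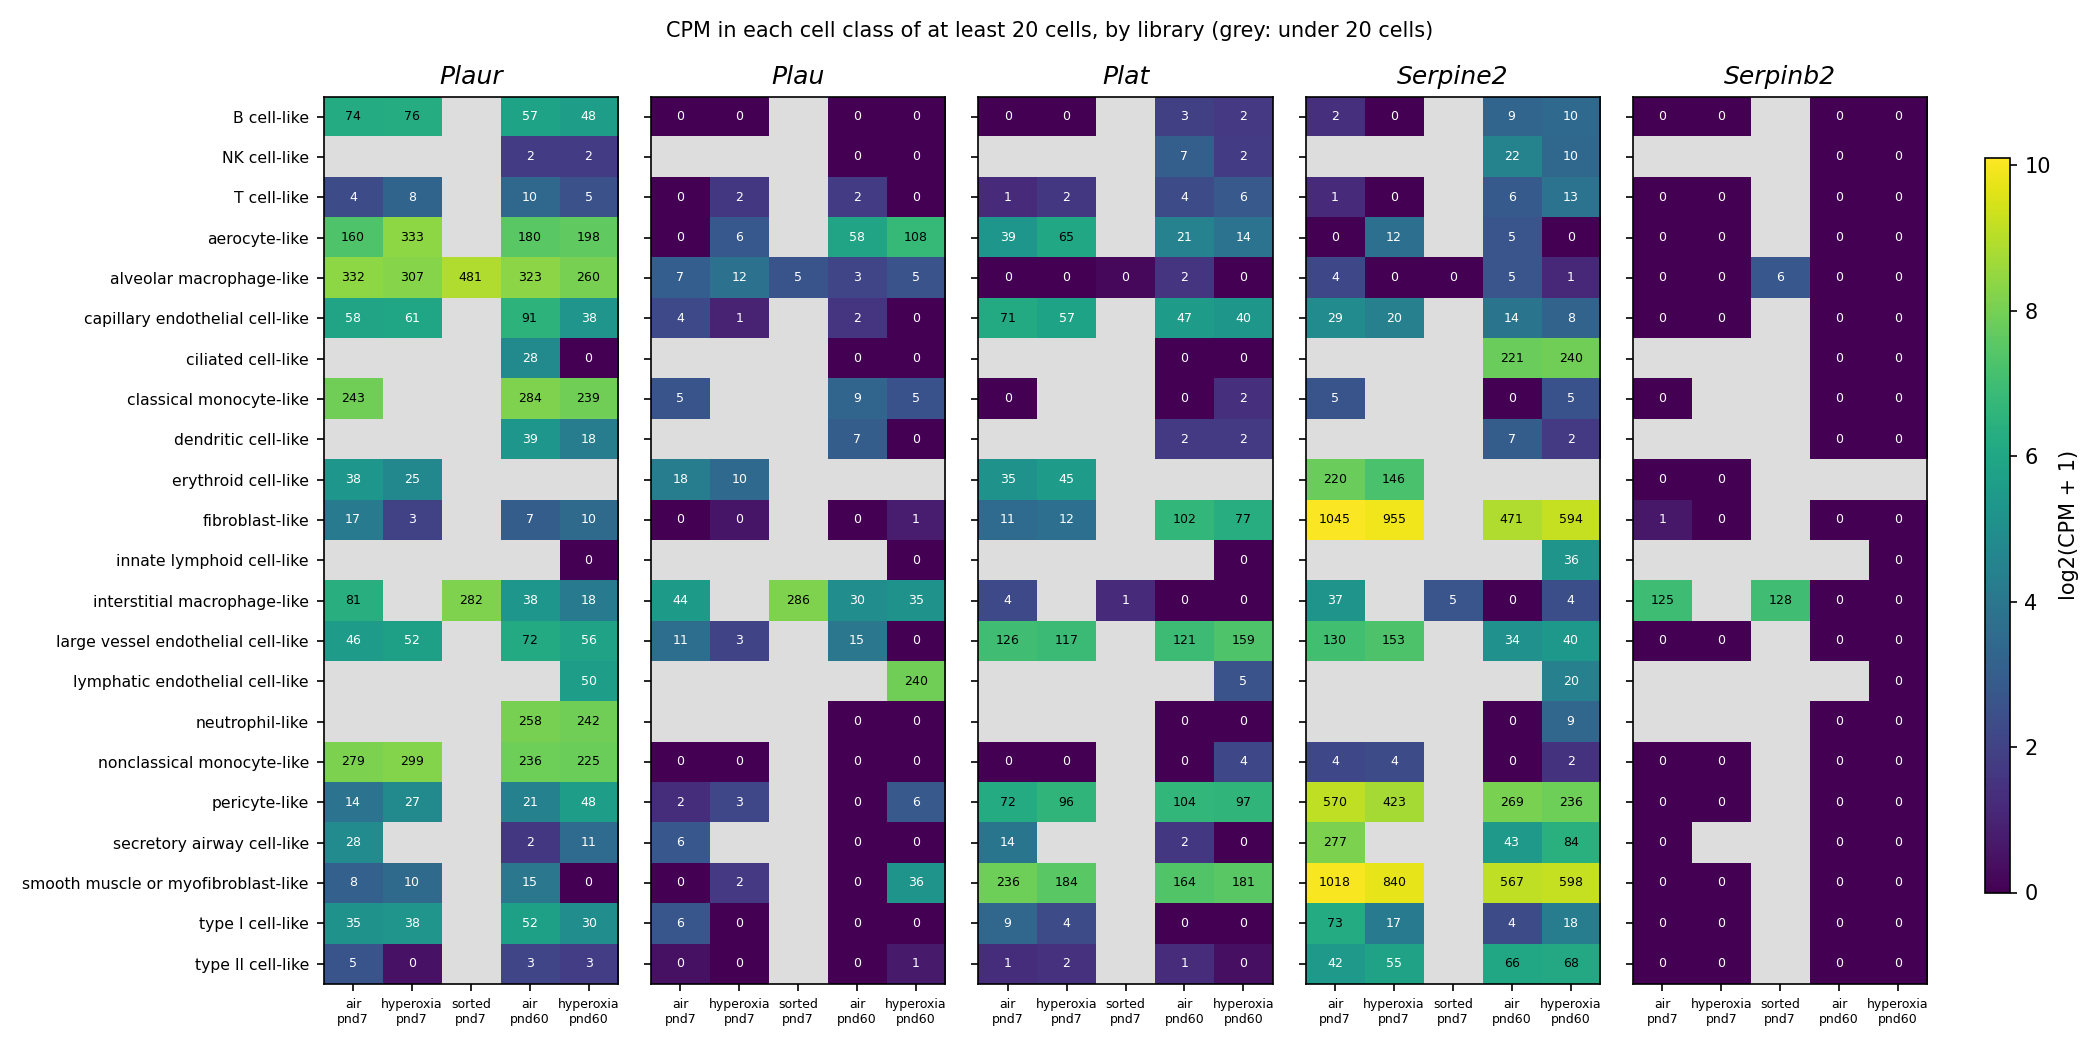
CPM of each member in each cell class with at least 20 cells, by library, coloured on a log2(CPM + 1) scale that is shared by the panels and grey where there were under 20 cells. Plaur fills the alveolar macrophage, monocyte, neutrophil and aerocyte rows and, at pnd7, the interstitial macrophage row. Plau fills the interstitial macrophage, lymphatic and adult aerocyte rows. Plat fills the smooth muscle or myofibroblast, pericyte, large vessel endothelial and adult fibroblast rows. Serpine2 fills the mesenchymal and ciliated rows and, at pnd7, the secretory airway, erythroid and large vessel endothelial rows. Serpinb2 fills the interstitial macrophage row in 2 libraries.

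Plau, the gene of urokinase, was measured at 5.83 CPM in air and 4.05 CPM in hyperoxia at pnd7, at 32.1 CPM in the sorted library, and at 5.83 CPM in air and 7.08 CPM in hyperoxia at pnd60. These levels came from 97, 55, 253, 86 and 117 counts. The sorted library was highest, and the intervals of the others overlapped except that hyperoxia at pnd7 lay under hyperoxia at pnd60. Sorted over unsorted hyperoxia gave 2.99 (2.56 to 3.43) and sorted over air 2.46 (2.12 to 2.81). Hyperoxia over air gave -0.52 (-1.03 to -0.03) at pnd7 and 0.28 (-0.14 to 0.70) at pnd60, from few counts. From pnd7 to pnd60 the ratio was 0.00 (-0.43 to 0.44) in air and 0.80 (0.33 to 1.29) after hyperoxia, and the latter turned to -0.06 with cells thinned to 1000 counts.

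In the sorted library 214 of the 253 Plau counts, or 84.6%, came from the 47 interstitial macrophage-like cells, and 34 came from the 412 alveolar macrophage-like cells. The class with the most counts in the sorted library thus differed between the receptor and its ligand. Even so, 21 of the 27 interstitial macrophage-like cells with Plau also held Plaur. Plau in interstitial macrophage-like cells was measured at 44.0 CPM in air (12 counts) and 66.8 CPM in hyperoxia (16 counts, 19 cells) at pnd7, at 286 CPM in the sorted library, and at 29.9 and 35.1 CPM in air and hyperoxia at pnd60. Sorted over air gave 2.70 (1.86 to 3.67), where 18.1% of genes in the class were higher by 2-fold and 9.58% lower. Plau was found in 27 of 47 sorted cells, 57.4%, against 8 of 23 air cells at 34.8%. With 1000 counts a cell, 10 of 47 sorted cells and 2 of 23 air cells held it. Over the whole sorted library no single cell held more than 32 of the 253 counts, but 10 cells held 172 of them. The median among the 55 cells with Plau was 1 count, and the intervals treat counts as independent. In alveolar macrophage-like cells the direction was the other one, with 5.16 CPM after the sort against 12.5 CPM in unsorted hyperoxia cells and a ratio of -1.28 (-2.29 to -0.15) that rests on 34 and 11 counts. Against air it was -0.47 (-1.61 to 0.86).

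A few lymphatic cells held a large share of the Plau counts of the unsorted libraries. The lymphatic endothelial cell-like cells numbered 4 in air and 2 in hyperoxia at pnd7, and 11 and 20 at pnd60, and gave 31, 12, 33 and 48 Plau counts, which is 32.0%, 21.8%, 38.4% and 41.0% of each library's total. In the 20 cells of hyperoxia at pnd60 the level was 240 CPM. The number of lymphatic cells depended on the classing, since a lymphatic endothelial cell-like cluster after integration by SCTransform held 62 air cells of pnd7. Erythroid cell-like barcodes gave 21 of the 97 Plau counts in air at pnd7, or 21.6%. Of these barcodes, 219 lay in cluster 20, with the lymphatic marker Mmrn1 among its top 10 genes, and the source of their Plau counts was not tested. Aerocyte-like cells held 0 Plau counts in 24 cells of air and 1 count in 26 cells of hyperoxia at pnd7, but 22 counts (58.2 CPM) in air and 40 counts (108 CPM) in hyperoxia at pnd60. With 3 counts in place of the 0, Plau in aerocyte-like cells was 4.02-fold higher at pnd60 than at pnd7 in air. This value has no interval and leaves out the counting error of the 22 counts. The cells compared lay in different clusters, 22 and 24 cells of air and hyperoxia at pnd7 in cluster 56 and all those at pnd60 in cluster 17. After hyperoxia the log2 ratio was 4.19 (1.63 to 9.53), and hyperoxia over air at pnd60 gave 0.90 (0.11 to 1.72). A Plau UMI was found in 17.0% of aerocyte-like cells in air and 22.9% in hyperoxia at pnd60, while 0 of 1256 and 0 of 1274 B cell-like cells of the same libraries held one.

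Plat, the gene of the tissue-type activator, was measured at 51.2 CPM in air and 36.5 CPM in hyperoxia at pnd7, at 0.76 CPM in the sorted library, and at 19.1 CPM in air and 15.8 CPM in hyperoxia at pnd60. The sorted library held 6 counts in 5 cells. Plat was therefore lowest in the sorted library, and higher at pnd7 than at pnd60 in the unsorted ones. Sorted over unsorted hyperoxia gave -5.58 (-7.03 to -4.45). Hyperoxia over air gave -0.49 (-0.65 to -0.33) at pnd7 and -0.27 (-0.52 to -0.02) at pnd60, so hyperoxia was the lower library at both ages. Age gave -1.43 (-1.63 to -1.23) in air and -1.21 (-1.43 to -0.99) after hyperoxia.

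The cells that held Plat differed with age. Smooth muscle or myofibroblast-like cells, the contractile cells of airways, vessels and growing septa, gave 72.3% of the Plat counts in air and 50.3% in hyperoxia at pnd7, and were 9.27% and 6.501% of the cells. Their level was 236 CPM in air and 184 CPM in hyperoxia at pnd7, and 164 CPM and 181 CPM in the 23 cells of each library at pnd60, which lay in cluster 55 with no pnd7 cell. Hyperoxia over air at pnd7 was -0.36 (-0.58 to -0.14) in these cells, and -1.24 with cells thinned to 1000 counts. Pericyte-like cells, which wrap capillaries, held 72.4 CPM in air and 96.1 CPM in hyperoxia at pnd7, with a ratio of 0.41 (-0.12 to 0.95). Of 6 classes compared at pnd7, the smooth muscle or myofibroblast class was the 1 whose interval lay wholly below 0, and none lay above.

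Plat in fibroblast-like cells was higher at pnd60 than at pnd7, the opposite of the whole library. The cells lay mostly in different clusters, in clusters 19, 51 and 70 at pnd7 and in clusters 4 and 27 at pnd60, where cluster 27 also held 14 air and 7 hyperoxia cells of pnd7. They held 10.7 CPM in air and 11.9 CPM in hyperoxia at pnd7, and 102 CPM and 77.4 CPM at pnd60. The ratio of pnd60 over pnd7 was 3.26 (2.56 to 4.03) in air and 2.70 (2.05 to 3.41) after hyperoxia, and hyperoxia over air at pnd60 was -0.40 (-0.78 to -0.02). At pnd60 these cells gave 47.3% of Plat counts in air and 41.0% in hyperoxia. Large vessel endothelial cell-like cells, a known source of the tissue-type activator, held 126, 117, 121 and 159 CPM in air and hyperoxia at pnd7 and at pnd60, with no interval off 0. In capillary endothelial cell-like cells Plat ran from 70.8 CPM in air at pnd7 to 40.1 CPM in hyperoxia at pnd60. T cell-like cells, which are not known to make the activator, held 1.35 to 6.06 CPM.

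Serpine2, the gene of protease nexin-1, was measured at 339 CPM in air and 276 CPM in hyperoxia at pnd7, at 6.98 CPM in the sorted library, and at 70.6 CPM in air and 81.7 CPM in hyperoxia at pnd60. No counting intervals overlapped among the 5 libraries, which held 55 to 5648 counts of it. Intervals from this many counts are narrow, and they do not cover the spread between mice. Sorted over unsorted hyperoxia gave -5.30 (-5.72 to -4.92), from 55 counts in 15 cells. Of these 55 counts, 20 came from 9 type II cell-like cells and 0 from the 412 alveolar macrophage-like cells. Hyperoxia over air was -0.30 (-0.36 to -0.24) at pnd7 and 0.21 (0.09 to 0.33) at pnd60, so the direction differed between ages. Age gave -2.26 (-2.36 to -2.17) in air and -1.76 (-1.85 to -1.66) after hyperoxia.

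Mesenchymal cells held most of the Serpine2 counts. Fibroblast-like cells stood at 1045 CPM in air and 955 CPM in hyperoxia at pnd7, and at 471 and 594 CPM at pnd60. Smooth muscle or myofibroblast-like cells stood at 1018 CPM in air and 840 CPM in hyperoxia at pnd7, and at 567 and 598 CPM at pnd60. In pericyte-like cells the levels were 570, 423, 269 and 236 CPM in the same order. The level in all 3 classes was higher at pnd7 than at pnd60, and lower in hyperoxia than in air at pnd7. In smooth muscle or myofibroblast-like cells the pnd60 levels came from 38 counts in air and 33 in hyperoxia. The median of all genes in that class for pnd60 over pnd7 was -0.20 in air and -0.47 after hyperoxia. After hyperoxia 34.1% of its genes were lower by 2-fold, so the fall there was not set apart from the class as a whole. Fibroblast-like and smooth muscle or myofibroblast-like cells of the 2 ages lay mostly in different clusters, as given for Plat. The ratio of hyperoxia over air at pnd7 was -0.13 (-0.22 to -0.04) in fibroblast-like, -0.28 (-0.38 to -0.18) in smooth muscle or myofibroblast-like and -0.43 (-0.64 to -0.22) in pericyte-like cells. Of the hyperoxia pericyte-like cells, 46 lay in cluster 53, which was shallow, had the platelet genes Itga2b and Nrgn among its top 10 genes and held 0 air cells, and its part in this ratio was not tested. At pnd60 it was 0.33 (0.18 to 0.49) in fibroblast-like cells, and the intervals of the other 2 spanned 0.

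Over 8 classes at pnd7, 5 intervals of hyperoxia over air for Serpine2 lay below 0 and 1 above. The 5 were fibroblast-like, smooth muscle or myofibroblast-like, pericyte-like and type I cell-like cells and the erythroid cell-like barcodes treated below. The 1 above was type II cell-like cells, at 0.37. In the erythroid cell-like barcodes the median of all genes was -0.49, and 19.99% of genes were lower by 2-fold. The fall of Serpine2 there was thus not set apart from the class as a whole. The medians in the other classes with an interval below 0 lay between -0.008 and 0.113. The largest ratio was in type I cell-like cells, the thin cells of the gas exchange surface, with 72.5 CPM in air against 17.0 CPM in hyperoxia and -2.10 (-3.07 to -1.24). Median depth in that class was 2132 counts in air and 12416 in hyperoxia, and the cells lay in different clusters, 180 of the 219 air cells in the shallow cluster 22, with Hbb-bs among its top 10 genes, and 41 of the 43 hyperoxia cells in cluster 46. From pnd7 to pnd60 in air, 7 of 9 classes had an interval below 0 and 1 above, type II cell-like cells at 0.64 (0.29 to 0.99). The median of all genes in type II cell-like cells was 0.26 there. Of their 437 air cells of pnd60, 372 lay in cluster 0, which held 0 air cells of pnd7. After hyperoxia, 4 of 6 classes had an interval below 0 and 2 spanned it. Secretory airway cell-like cells in air held 277 CPM at pnd7 and 43.5 CPM at pnd60, at median depths of 2009 and 10524 counts. They lay mostly in different clusters, 113 of the 115 cells of pnd7 in cluster 32 and 21 of the 29 of pnd60 in cluster 50. Classed by their own markers, 35 cells of this class over all libraries kept its name, 74 were ciliated cell-like and 41 erythroid cell-like. Ciliated cell-like cells held 221 CPM in air and 240 CPM in hyperoxia at pnd60.

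Serpine2 was also found in erythroid cell-like barcodes, not all of which kept that class when each was classed by its own markers. Over all libraries, 447 were then erythroid cell-like, 51 smooth muscle or myofibroblast-like and 31 lymphatic endothelial cell-like. Cluster 20 of this class, with 219 air barcodes at pnd7, had the lymphatic marker Mmrn1 among its top 10 genes. Erythroid cell-like barcodes in air at pnd7 held Serpine2 at 220 CPM, with a UMI in 38.2% of 511 barcodes at a median depth of 1859 counts. Those in hyperoxia held it at 146 CPM in 56 barcodes. The median log2 ratio of hyperoxia over air of all genes in this class was -0.49, so the lower level was not set apart from the class as a whole. Plat and Plau were found there too, at 34.8 and 17.8 CPM in air. B cell-like cells of the same air library held a Serpine2 UMI in 0.83% of 120 cells at a median depth of 3784 counts. The source of the erythroid counts was not tested. The level in type I cell-like cells in air lay under that of the erythroid barcodes, and those of the mesenchymal classes at pnd7 lay over it. After thinning to 1000 counts, 57.6% of fibroblast-like and 59.3% of smooth muscle or myofibroblast-like cells in air at pnd7 held a Serpine2 UMI, against 21.2% of erythroid cell-like barcodes and 0 of 120 B cell-like cells.

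Serpinb2, the gene of the type 2 plasminogen activator inhibitor and known as an inducible gene of macrophages, rested on very few cells. It was measured at 2.52 CPM in air and 0.22 CPM in hyperoxia at pnd7, at 17.0 CPM in the sorted library, and at 0.27 and 0.12 CPM in air and hyperoxia at pnd60. The counts behind these levels were 42, 3, 134, 4 and 2. The sorted and the air pnd7 libraries were highest. Sorted over unsorted hyperoxia gave 6.27 (4.69 to 8.56) and sorted over air 2.75 (2.24 to 3.29). The 134 sorted counts lay in 5 cells, of which the top 2 held 85, and 34 of the 42 air counts lay in 1 cell. The intervals treat counts as independent, so they say little where so few cells carry them.

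The cells with the most Serpinb2 counts in the sorted and the air library were macrophage-like. In the sorted library 96 counts came from 3 of the 47 interstitial macrophage-like cells and 38 from 2 of the 412 alveolar macrophage-like cells. The single air cell with 34 counts was 1 of the 23 interstitial macrophage-like cells of that library, and the other 8 air cells, none of them in a macrophage-like class and 6 of them unnamed, held 1 count each. The class level was 128 CPM in the sorted and 125 CPM in the air library, a ratio of 0.04 (-0.54 to 0.65), and 0 counts were found in the 19, 65 and 56 cells of this class in the other libraries. Interstitial macrophage-like cells were 9.53% of the sorted cells and 0.9965% of the air cells.

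Members were found together in single cells of the sorted library as follows. Among the 412 alveolar macrophage-like cells, 390 held Plaur, 26 held Plau and 24 held both. Among the 47 interstitial macrophage-like cells, 38 held Plaur, 27 held Plau and 21 held both. All 3 interstitial macrophage-like cells with Serpinb2 also held Plaur and none held Plau. Plat was found in 1 cell of each class, and Serpine2 in 0 alveolar and 2 interstitial macrophage-like cells. Cells with more counts are more likely to hold any pair, so these are counts only.

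The class levels of an unsorted pnd7 library were weighted by the class shares of the sorted library. For Plaur this gave 267 CPM from hyperoxia and 288 CPM from air, beside the 441 CPM measured. For Plau it gave 17.5 and 11.4 CPM, beside 32.1 CPM. Both stayed under the measured level, by 0.72 and 0.61 on the log2 scale for Plaur and by 0.88 and 1.495 for Plau. For Plat the weighted levels were 1.07 and 1.65 CPM beside 0.76 CPM, and for Serpine2 they were 6.81 and 15.1 CPM beside 6.98 CPM. For Serpinb2 they were 0.0051 and 11.9 CPM beside 17.0 CPM. The sorted level of Serpine2 was within 0.04 on the log2 scale of the weighted hyperoxia level, but at -1.11 against the weighted air level. The references thus disagree, and whether class shares alone give the sorted level of Serpine2 stays undecided. That of Plat, from 6 counts, lay under both weighted levels. The hyperoxia weighting uses 19 interstitial macrophage-like cells, under the minimum for a class. Sorted classes other than the macrophage-like ones had at most 9 cells, so their shares are uncertain.

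Among 23 other genes of the plasminogen and coagulation system, 18 had enough counts between the sorted and the unsorted hyperoxia library. Of these, 4 were higher by 2-fold and 7 lower, where 8.17% of all genes were higher by that much and 36.4% lower. The share that was lower was thus near that of all genes, and the median was -0.18 beside -0.55. The 4 were the plasminogen receptor gene Plgrkt at 1.59 (1.48 to 1.71), Lrp1, which takes up inhibitor complexes, at 1.20, S100a10, which binds plasminogen together with annexin A2, at 1.18, and the formyl peptide receptor gene Fpr2 at 1.07. The 7 were Mrc2, Itgb3, Igf2r, F2r, F2rl1, Thbd and Tfpi, among them receptors of mesenchymal and endothelial cells, at -4.57 to -2.29. Plg itself, the gene of plasminogen, which the liver makes, had 0 counts in all 3 pnd7 libraries. Between hyperoxia and air, 0 of 19 passed 2-fold at pnd7 and 0 of 18 at pnd60. From pnd7 to pnd60, 2 of 18 were higher in air, 4 of 18 after hyperoxia and 0 lower in either. Of all genes, 15.1% were higher and 9.35% lower in air, and 19.1% and 9.49% after hyperoxia. Thbd, the gene of thrombomodulin, which turns thrombin towards protein C, was at 1.79 (1.71 to 1.87) in air and 1.80 (1.72 to 1.89) after hyperoxia.

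Within alveolar macrophage-like cells, where 4% of all genes were higher by 2-fold and 13.8% lower, 9 of these genes had enough counts. Of them, Itgam, an integrin chain that pairs with uPAR, was higher by 2-fold at 1.39 (0.30 to 2.73), Fpr2 at -1.99 (-2.24 to -1.74) and Thbd at -1.13 (-1.70 to -0.54) were lower, and the median was -0.20 beside -0.29 over all genes. Plgrkt, at -0.18 (-0.38 to 0.02), had an interval that spans 0 there. S100a10 was at 0.61 (0.49 to 0.74). Of 14 other serpins, 9 had enough counts over all cells, where 8.17% of all genes were higher by 2-fold and 36.4% lower. Serpinb1a, an inhibitor of neutrophil proteases, was higher at 1.65 (1.498 to 1.80). Another 6 were lower, Serpinh1 and Serping1 the lowest at -4.66 and -4.73, and the median of the 9 was -2.61. In the alveolar macrophage-like class Serpinb1a was at -0.77 (-0.98 to -0.56), the opposite direction. Of the 10 immediate early genes in that class, Atf3 at 2.47 and Ier3 at 2.51 were higher by 2-fold and 4 were lower, Fos most, at -3.22.

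**Figure D5:**
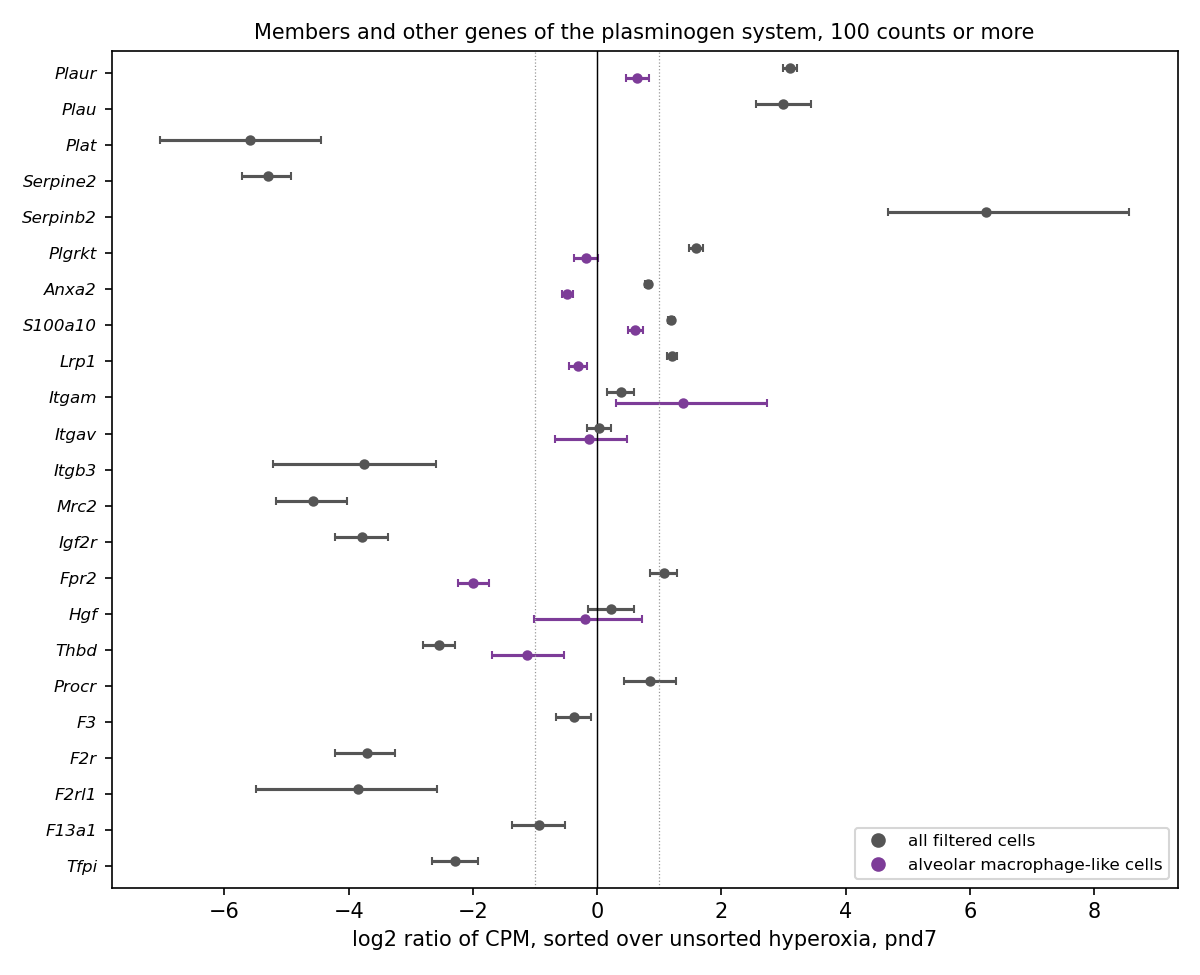
Log2 ratio of CPM, sorted over unsorted hyperoxia at pnd7, of the members and the other genes of the system with at least 100 counts, over all filtered cells (grey) and within alveolar macrophage-like cells (purple), with exact 95% intervals as bars and 2-fold as dotted lines. Plaur keeps a ratio above 0 within the class, at 0.65, while Plgrkt lies near 0 there and Fpr2 at -1.99.

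Likeness of pattern was taken as Pearson's r of log2(CPM + 10) over 71 groups of a class and a library, among 14375 genes. These groups share libraries and clusters, so r is a description only. Closest to Plaur were Gngt2 (0.83), Lyn, Sirpa, Slc15a3 and Pik3r6 (0.77). Closest to Plau were Stab1 (0.64), Ccdc152, Selenop, Rasa4 and Npl (0.58), and to Plat Gm13889 (0.92), Fstl1, Pcsk5, Lix1l and Fam13c (0.87). Closest to Serpine2 were Sdc2 (0.89), LOC115485680, Gli3, Ptk7 and Wnt5a (0.88). Closest to Serpinb2, whose pattern rests on 2 groups, were Prg4 (0.98), Cd5l, Fcna, Ccl24 and Il6 (0.81). Among the members, Plat and Serpine2 were the most alike at 0.64 and Plaur and Serpine2 the least at -0.57.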

How the data were processed

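Lung cells were captured with the 10x Genomics Chromium 3' kit, 1 library per condition. The authors deposited raw UMI counts per gene and barcode, not normalized. They were made with Cell Ranger 3.1.0 per the file headers on build mm10 per the labels, and the submitters' notes name Seurat 3.2.1. The annotation is not given in the sources used here.

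Cells with more than 700 and fewer than 8000 genes and under 5% mitochondrial counts were kept, after the study's methods. Scrublet called 0, 4, 15, 141 and 157 cells as doublets in air pnd7, hyperoxia pnd7, sorted, air pnd60 and hyperoxia pnd60, and these were kept, so that doublets remain in the classes. Counts were summed over a library or class and divided by their total (CPM). Exact Poisson, Clopper-Pearson and conditional binomial intervals at 95% were given for levels, shares and ratios, and a group at 0 was set to a floor of 3 counts. A gene counted as past 2-fold needed 100 counts in both libraries together, and a class needed 20 cells.

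Cells were clustered with Leiden (resolution 3, 50 dimensions, 15 neighbours) without integration, and the members and the genes of the fixed lists were left out of the variable genes. Clusters were named from fixed markers, with thresholds set after seeing the clusters, so the names are rebuilt here and not those of the study. Alternatives were another filter, scaling, thinning to 1000 counts, doublet removal and 3 other classings, among them an integration by SCTransform (sctransform 0.4.2, Seurat 5.3.0, R 4.3.3). Python 3.11.15 was used with scanpy 1.11.5, leidenalg 0.10.2, scipy 1.17.1, numpy 2.4.6, pandas 2.3.3 and matplotlib 3.10.9. Simulated data with known folds were used to test the code for ratios and intervals.

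The genes named are the 5 members, the genes of the fixed lists, the 5 genes most like each member and the leading genes of clusters. Members and lists were chosen with earlier results of these data known. Of the plasminogen system list, 1 gene is not reported here, and the counts and medians of that list leave it out.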

Additional observations from a re-analysis of the deposited data

Results flagged for a closer look

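Serpine2 moved in opposite directions with hyperoxia at the 2 ages. Over all cells the log2 ratio of hyperoxia over air was -0.298 at pnd7 and 0.211 at pnd60, and in fibroblast-like cells it was -0.130 at pnd7 and 0.333 at pnd60. With 1 library for each, the difference between ages was not tested.

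Barcodes outside the filter also carried the members. In the sorted library the removed barcodes held Plaur at 389 CPM, against 4.54 CPM in the removed barcodes of air at pnd7, from 49 counts in 76 barcodes and 60 counts in 1935 barcodes. Serpine2 was at 60.2 CPM in the removed barcodes of hyperoxia at pnd7 against 29.8 CPM in those of air, and at 79.5 CPM against 50.7 CPM at pnd60. Hemoglobin genes took 39.2% of all deposited counts in air and 37.6% in hyperoxia at pnd7, but 3.38% and 2.22% of those in kept cells. In the sorted library they took 0.644% of all deposited counts. Their part in the levels of removed barcodes was not tested.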

How the results depend on the processing

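No paired analysis was possible because there was 1 library for every condition. Of 340 values recomputed under the alternatives, 269 stayed within their intervals or within 1.5 times of a count, and of 286 recomputed ratios 271 kept their sign. These tallies include a setting that added further gene copies, with 36 values. No member had a further copy, so these values could not change. The ratio of pnd60 over pnd7 after hyperoxia reversed for Plaur, to -0.025 with cells thinned to 1000 counts and -0.12 with mean CPM per cell, and for Plau, to -0.062 with thinned cells. With no minimum of counts, 1 member passed 2-fold between hyperoxia and air at pnd7 and 1 at pnd60, Serpinb2 in both. With all deposited barcodes, hyperoxia over air at pnd7 was -0.24 for Serpine2, and sorted over unsorted hyperoxia was 3.88 for Plaur, 3.83 for Plau and -4.64 for Serpine2. With median-of-ratios size factors the same 3 were 3.77, 3.65 and -4.64. With thinned cells, hyperoxia over air at pnd7 was 0.18 for Plaur, -0.75 for Plat and -0.38 for Serpine2. Sorted over unsorted hyperoxia was then 2.67 for Plaur, -2.79 for Plat and -3.93 for Serpine2. For Serpinb2 it was at least 2.56, a bound, since no hyperoxia cell held Serpinb2 after thinning and the floor of 3 counts was used. Members past 2-fold then numbered 2 against hyperoxia, 3 against air and 1 from pnd7 to pnd60 after hyperoxia, where Plat was at -0.78. With mean CPM per cell, hyperoxia over air at pnd7 was 0.29 for Plaur, -1.14 for Plau and -0.13 for Plat, 1 member passed 2-fold, and sorted over unsorted hyperoxia was 2.82 for Plaur and -3.72 for Plat. Within classes, thinned cells gave 0.87 for Plaur in alveolar macrophage-like cells (sorted over unsorted hyperoxia), -0.38 for Serpine2 in fibroblast-like cells and -1.24 for Plat in smooth muscle or myofibroblast-like cells (both hyperoxia over air at pnd7). The share of all genes past 2-fold is not given for the settings of this paragraph, so its counts of members have no background. Apart from the floor and the minimum of counts, the cause of these shifts was not tested. The wider filter, hemoglobin-free totals and the 3 other classings left every value they were run on within its interval. Integration, however, gave only 229 of the 492 named sorted cells the same class name. Depth limits Serpinb2 in the unsorted libraries, Plat in the sorted library and Plau in most classes, where few counts carried a value.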
